A study of Homo sapiens with 10 samples.

Results

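The genes described here are orphan receptors of the GPR and GPRC names and adhesion G protein-coupled receptors of the ADGR and CELSR names, measured in HuCCT1, an established line of human intrahepatic bile duct cancer. A gene was a member if a probe set with exactly 1 gene symbol carried such a name, and the brightest of its probe sets over the 10 arrays stood for it. This gave 99 members, read by 178 probe sets, of the 19775 genes measured. Of the members, 93 are receptor genes or bear a receptor name, and 6 are counted apart: the noncoding ADGRB3-DT, ADGRF5-AS1 and GPR176-DT, the pseudogenes ADGRF2P and GPR199P, and GPR15LG, which encodes a ligand.

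Cells with an empty vector (5 arrays) were compared with cells given a YAP1 expression construct (5 arrays). YAP1 is the transcriptional co-activator held back by the Hippo kinases, and it binds DNA through TEAD factors. The sample labels call the construct YAPS94A, a change known to weaken TEAD binding, whereas the design text names the constitutively active S127A, so the construct is called by its sample label. The promoter of the construct, and whether cells were cloned or pooled, are not given in the sources used here. Separate cultures are not stated for the 5 arrays that share a vector, and the p-values therefore reflect array-to-array spread that may be technical only.

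G protein-coupled receptors cross the membrane in a bundle of helices and pass signals to heterotrimeric G proteins. Orphan receptors are those for which no endogenous ligand is generally accepted, although several genes that keep the GPR name now have one. Adhesion receptors carry a long extracellular part that binds matrix or proteins on neighbouring cells, and in most of them it is cut from the membrane part at a conserved site and stays attached to it. Receptors that act through the G12 and G13 proteins are known to switch YAP1 on, and those that raise cyclic AMP are known to restrain it.

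Signals are deposited log2 values between 2.86 and 14.43. No detection calls were used, so the 82 measured olfactory receptor genes, which bile duct cells are not known to use, served as a yardstick: 95% of their means over the 10 arrays lay at or under 5.88. The 8 bile duct epithelium markers were above this yardstick, and 6 of them were higher with YAPS94A, by 0.13 to 0.33. Of all genes above the yardstick 48.2% passed the limma test described below, in either direction. None of the 5 endothelial markers was above it. Of 6 fibroblast markers 3 were above it and 1 was higher, LUM (from 8.04 to 10.70), so the summed log2 signal of that list went from 37.8 to 38.7 with empty vector to 40.2 to 40.9, while COL1A2, COL3A1 and PDGFRB were not above it. Of the 6 hepatocyte markers 3 were above the yardstick and SERPINA1 was lower by 0.19. Of the 4 leukocyte markers measured 2 were above it, and LYZ was lower by 1.48. Of the 5 neuronal and glial markers 2 were above it, and SYT1, itself not above it, was lower by 0.49. The part of these markers in any difference below was not tested, and in RNA of a whole culture fewer cells of a type and less RNA per cell cannot be told apart. Signal of the 5' end minus that of the 3' end of the actin control, a sign of RNA and amplification quality, ranged from -1.51 to -0.84 with empty vector and from -1.43 to -0.76 with YAPS94A, lowest on empty vector array 1 and YAPS94A array 2. In the text that follows a level is a mean ± SD of 5 arrays, and a difference is YAPS94A minus empty vector ± the standard error (SE) of the fit.

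As a family the receptors were called about as often as other genes. Of the 99 members 31 (31.3%) passed the limma test at an adjusted p under 0.05, beside 36.3% of all genes. Of these 19 were higher with YAPS94A and 12 lower, beside 18.6% of all genes higher and 17.6% lower. The groups did not overlap for 24 members (24.2%), beside 29.1% of all genes. Called members that differed by at least 2-fold numbered 2, GPR158 and ADGRG2, beside 3.27% of all genes, and 20 of the 31 differed by under 1.5-fold. The median difference over the members was -0.011, beside -0.0038 over all genes, and the median size of a difference was 0.092 beside 0.10.

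Calls lay mostly among the brighter receptors, as they did among all genes. Of the 93 receptor genes 43 had a mean over the 10 arrays above the yardstick, and 23 of those (53.5%) passed the test, beside 48.2% of all genes above it. Of the 50 not above it 8 (16.0%) passed, beside 12% of all such genes. Those 8 were GPR158, GPR75, ADGRB3, GPR143 and ADGRG7, which were higher, and GPR37, GPR85 and ADGRF5, which were lower. None of the 6 members counted apart passed the limma test, and only GPR199P, whose _x_at probe set can cross-hybridise, was above the yardstick.

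**Figure D1:**
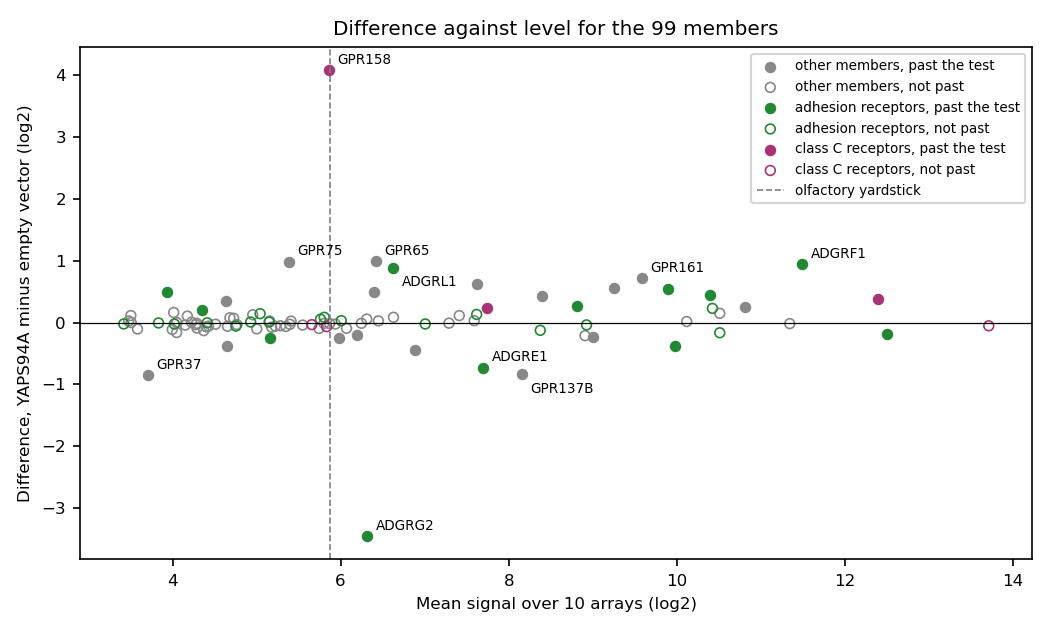
Difference between vectors (YAPS94A minus empty vector, log2) against the mean signal over 10 arrays (log2) for each of the 99 members; filled points passed the test and the dashed line is the olfactory yardstick at 5.88. Most points lie close to 0, and GPR158 at 4.08 and ADGRG2 at -3.45 stand far from the rest.

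GPR158 and ADGRG2 went from one side of the yardstick to the other, in opposite directions. GPR158, a class C receptor known from neurons, where it holds the regulator RGS7 and the G beta subunit GNB5 in a complex, read 3.78, 3.91, 3.65, 3.99 and 3.78 on empty vector arrays 1 to 5. On the YAPS94A arrays GPR158 read 7.93, 8.10, 7.73, 7.76 and 7.98. The lowest YAPS94A array thus lay more than 3 log2 units above the highest empty vector array, and the signal rose 16.9-fold (4.08 ± 0.081, SE, limma adjusted p = 7.47e-12). Since its empty vector signal lay far below the yardstick, the fold is that of the array signal and its true size is uncertain. The mean over all 10 arrays fell just short of the yardstick (5.86) although all 5 YAPS94A arrays were above it.

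ADGRG2, also called GPR64, is an adhesion receptor best known from the epithelium of the male efferent ducts and epididymis. It read 8.15, 8.03, 8.02, 8.01 and 7.99 with empty vector and 4.59, 4.52, 4.76, 4.51 and 4.59 with YAPS94A. Each empty vector array was above the yardstick and each YAPS94A array below it, and the signal fell 10.9-fold (-3.45 ± 0.054, adjusted p = 1.61e-12). Background may limit the lower value. GPR158 and ADGRG2 are each read by 1 probe set with 1 symbol, so the array holds no second reading of them. Over all alternatives tried, GPR158 lay between 3.41 and 4.12 and ADGRG2 between -3.49 and -3.39.

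**Figure D2:**
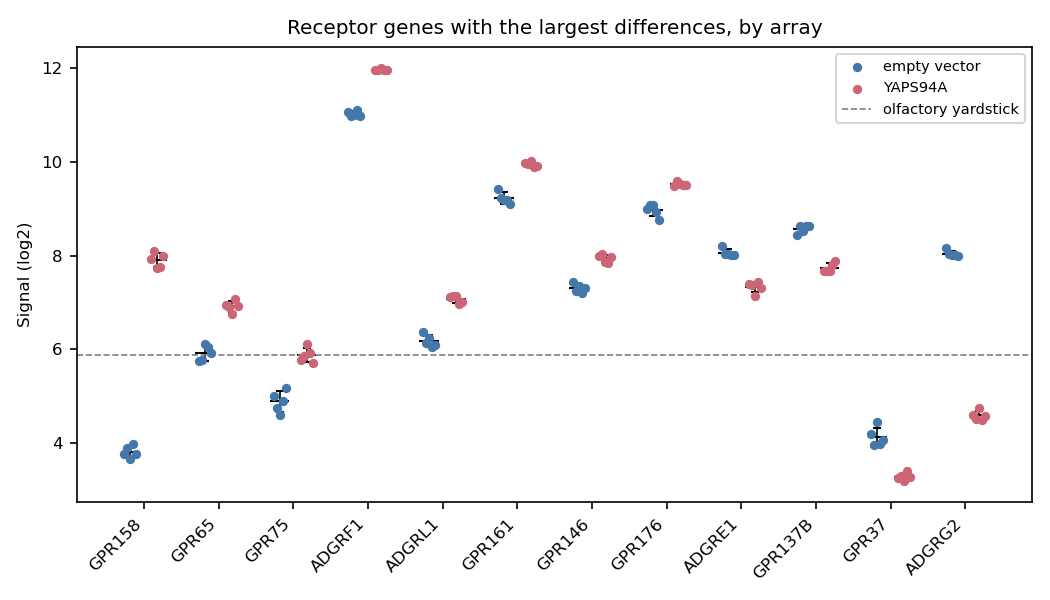
Signal (log2) on each array for the 12 called members with the largest differences, with group mean and SD (bars, n = 5) and the olfactory yardstick (dashed, 5.88). The 5 YAPS94A points and the 5 empty vector points do not overlap for any of the 12 genes, and GPR75 and GPR37 stay around or under the yardstick.

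Of the other class C receptors GPRC5B and GPRC5C rose, by less than GPR158, and the rest did not pass. GPRC5A, a retinoic acid-induced receptor that acts as a tumour suppressor in mouse lung, read 13.73 ± 0.044 with empty vector and 13.68 ± 0.019 with YAPS94A (mean ± SD, n = 5 each), close to the highest signal on the arrays. Its difference of -0.052 (95% interval of the fit -0.13 to 0.021) did not pass (adjusted p = 0.27), and its second bright probe set was at -0.057. A dimmer one, further from the top of the signal range, was at -0.26 and did not pass either (adjusted p = 0.198 over all probe sets). GPRC5B, of the same retinoic acid-induced group, rose from 12.21 ± 0.091 to 12.58 ± 0.075 (0.38 ± 0.052, adjusted p = 0.000127). Its other probe sets were at 0.59, 0.75 and 0.22, of which the last was not called (adjusted p = 0.0994 over all probe sets). GPRC5C, also of this group, rose by 0.24 ± 0.068 (adjusted p = 0.0158), with overlapping groups, as YAPS94A array 5 (7.60) lay within the empty vector range of 7.53 to 7.70. Its call did not hold on the 1 other probe set, a dim one at 0.029, nor on the mean of both (adjusted p = 0.0657). GPRC5D and GPRC6A, at 5.87 and 5.67 with empty vector, did not pass and were not above the yardstick. With GPR158, 3 of the 6 class C members rose and none fell in this limma test, beside 18.6% of all genes higher and 17.6% lower.

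Of 29 adhesion receptor genes 7 rose, 5 fell and 17 did not pass (41.4% past the test, beside 36.3% of all genes), with a median difference of 0.009. The groups did not overlap for 10 of them (34.5%, beside 29.1% of all genes). Above the yardstick stood 16, of which 9 passed, beside 48.2% of all genes above it.

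Latrophilins, of subfamily L, are receptors for the teneurin and FLRT proteins of neighbouring cells and for the spider toxin latrotoxin. ADGRL1 read 6.38, 6.14, 6.25, 6.04 and 6.10 with empty vector and 7.12, 7.13, 7.13 and 6.98 on YAPS94A arrays 1 to 4, with array 5 inside that range. The groups did not overlap, and the rise was 1.85-fold (0.89 ± 0.065, adjusted p = 5.04e-07). A second ADGRL1 probe set of like brightness rose by 0.61, and a dim further one was at 0.075. ADGRL2 read 10.20, 10.10, 10.27, 10.11 and 10.15 with empty vector and 10.65, 10.56, 10.61, 10.61 and 10.65 with YAPS94A, again without overlap (0.45 ± 0.042, adjusted p = 4.21e-06). It is read by an _s_at probe set, and the other ADGRL2 probe set, which was not above the yardstick, was at -0.011. ADGRL3 and ADGRL4 were not above the yardstick and differed by -0.056 and -0.022. The dimmer ADGRL3 probe sets were at -0.17, -0.11 and 0.011. Of these the first passed with overlapping groups (adjusted p = 0.0314 over all probe sets).

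In subfamily F, ADGRF1 (GPR110), a receptor for the fatty acid amide synaptamide, read 11.06, 10.97, 10.99, 11.10 and 10.98 with empty vector. With YAPS94A it read 11.95, 11.96, 12.01, 11.95 and 11.95. Arrays of a vector lay close together for this gene while the vectors differed by 0.94 ± 0.036, a 1.92-fold rise (adjusted p = 2.33e-09). Its other 3 probe sets, all bright, rose by 0.89, 0.64 and 0.60, with no overlap of groups on any of the 4. ADGRF4 did not pass on its brighter probe set (0.13 ± 0.058, adjusted p = 0.0999, or 0.0185 without YAPS94A array 5) and rose on the other (0.31 ± 0.072, adjusted p = 0.00641 over all probe sets). ADGRF5, needed for surfactant balance in the lung, was not above the yardstick and fell by 0.24 ± 0.043 (adjusted p = 0.000763).

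Members of subfamily G moved in both directions. ADGRG1 (GPR56), which binds type III collagen and transglutaminase 2 and couples to G12 and G13, read 9.87, 9.62, 9.70, 9.42 and 9.51 with empty vector and 10.25, 10.32, 10.08, 10.14 and 10.07 with YAPS94A. The groups did not overlap and the rise was 1.46-fold (0.55 ± 0.082, adjusted p = 0.000217), with 0.34 on its second probe set. ADGRG6 (GPR126), known for its part in myelination by Schwann cells, was bright with both vectors and fell from 12.59 ± 0.078 to 12.40 ± 0.046 (-0.19 ± 0.044, adjusted p = 0.0045). Its dimmer probe sets fell too, with differences of -0.26 and -0.53 and overlapping groups on both. ADGRG7 rose by 0.21 ± 0.052 (adjusted p = 0.00719) at a mean of 4.25 with empty vector, where no array of it was above the yardstick. ADGRG3 and ADGRG4 did not pass.

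Among the EGF-module receptors of subfamily E, ADGRE1, whose mouse counterpart is a macrophage marker, read 8.21, 8.03, 8.04 and 8.02 on empty vector arrays 1, 2, 3 and 5, slightly less than these on array 4, and 7.39, 7.38, 7.15, 7.44 and 7.31 with YAPS94A. It fell 1.66-fold without overlap (-0.73 ± 0.060, adjusted p = 1.47e-06). ADGRE5 (CD97), a receptor for CD55, read 8.89, 8.75, 8.74, 8.50 and 8.52 against 9.12, 9.13, 8.88, 8.79 and 8.79, so that its groups overlapped. Its rise of 0.26 ± 0.093 passed narrowly (adjusted p = 0.0449) and was lost in 9 of 21 alternatives, among them quantile normalization (adjusted p = 0.0623) and 7 of the 10 fits that left out 1 array: empty vector arrays 2 to 5 and YAPS94A arrays 1 to 3, with adjusted p-values of 0.057 to 0.11. ADGRE2 and ADGRE3 were not above the yardstick and did not pass.

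CELSR1, CELSR2 and CELSR3, the cadherin-bearing receptors of planar cell polarity, were bright but varied between arrays of a vector. CELSR3 read 10.83, 10.79, 10.49, 10.42 and 10.41 with empty vector and 10.57, 10.65, 10.35, 10.28 and 10.29 with YAPS94A. In both groups the arrays numbered 1 and 2 were the highest. The actin control's 5' end minus its 3' end was -1.51 and -1.24 on those empty vector arrays and -1.14 and -1.43 on those YAPS94A arrays. With that control value as a covariate CELSR3 did not pass (adjusted p = 0.144) and CELSR1 did (adjusted p = 0.00153), and with arrays 1 and 2 of both vectors left out CELSR3 passed (adjusted p = 0.0401). None of the 3 passed the limma test: CELSR1 was at 0.23 ± 0.094 (adjusted p = 0.0806), CELSR2 at -0.13 ± 0.053 (adjusted p = 0.0929) and CELSR3 at -0.16 ± 0.10 (adjusted p = 0.265). Blocking on the array number, which takes up such shared shifts, brought all 3 past the test, with adjusted p-values of 0.022, 0.0439 and 0.00687 and CELSR1 alone higher. CELSR1 also passed without empty vector array 1 or 3 (adjusted p = 0.0193 and 0.0489). It is not settled either way, because its second probe set fell (-0.42 ± 0.083, adjusted p = 0.0025 over all probe sets, no overlap).

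In subfamilies A and B, ADGRA3 (GPR125) fell from 10.17 ± 0.12 to 9.78 ± 0.13 (-0.39 ± 0.073, adjusted p = 0.00122) with dimmer probe sets at -0.17 and -0.24. ADGRA2 (GPR124), a co-receptor for Wnt7 in brain vessels, differed by -0.038 (95% interval -0.13 to 0.05). ADGRB3 (BAI3), a receptor for C1q-like proteins, rose by 0.49 ± 0.081 (adjusted p = 0.000421) from 3.69, under the yardstick on all 10 arrays. Its other probe set was at 0.01. ADGRB1, ADGRB2, ADGRA1, ADGRD1, ADGRD2 and ADGRV1 did not pass and differed by -0.022 to 0.086.

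**Figure D3:**
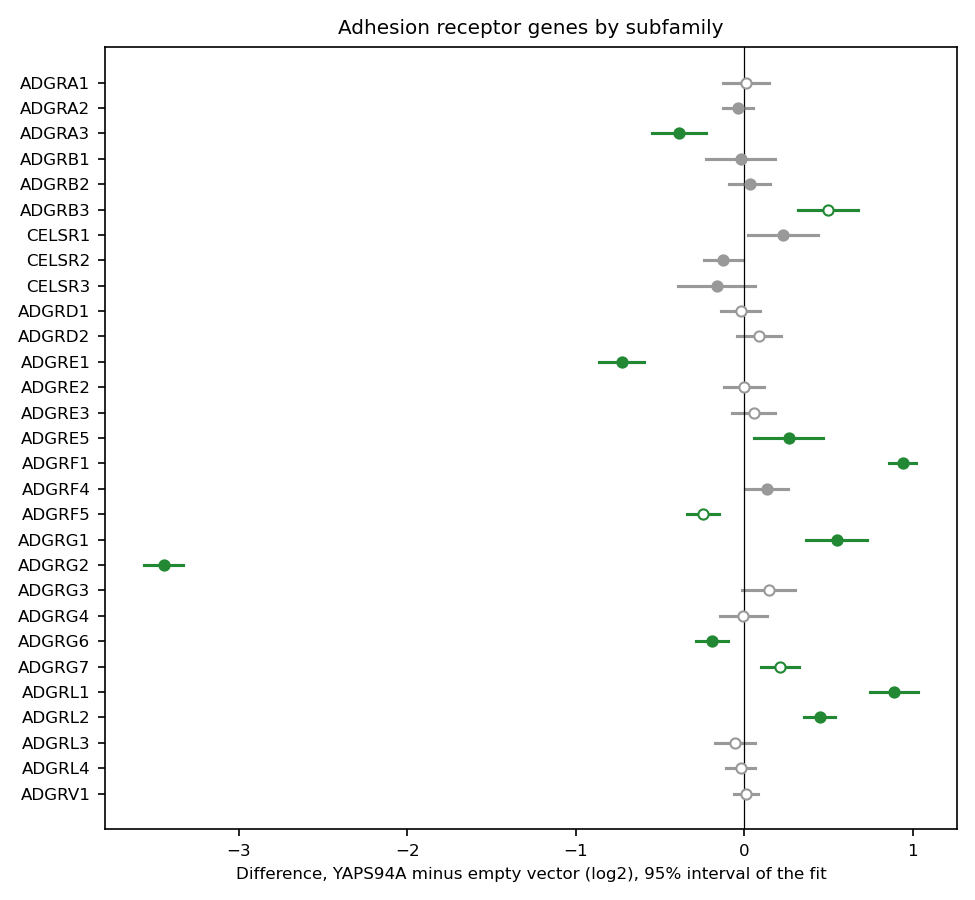
Difference between vectors (log2) with its 95% interval for each of the 29 adhesion receptor genes, grouped by subfamily; green marks genes past the test and open points those with a mean not above the yardstick. ADGRG2 lies at -3.45, the other 28 between -0.73 and 0.94.

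Among the receptors outside the adhesion and C classes, proton-sensing and cyclic AMP-linked genes gave single changes. GPR65 (TDAG8), which senses extracellular protons and raises cyclic AMP, read 5.75, 5.77, 6.12, 6.05 and 5.93 with empty vector and 6.96, 6.90, 6.75, 7.08 and 6.92 with YAPS94A. It rose 1.99-fold without overlap (0.99 ± 0.081, adjusted p = 1.3e-06), from around the yardstick to above it. The proton sensor GPR132 fell by 0.20 ± 0.064 (adjusted p = 0.0285) with overlapping groups, and its second probe set was at 0.007. That call did not hold when both probe sets were averaged (adjusted p = 0.178), nor when any 1 of 5 arrays was left out: empty vector arrays 2, 3 and 5 and YAPS94A arrays 1 and 4. GPR4 was at 0.027. GPR3, which raises cyclic AMP without a known ligand and holds oocytes in meiotic arrest, read 7.08, 7.28, 7.08, 7.03 and 7.05 with empty vector and 6.74, 6.82, 6.56, 6.57 and 6.62 with YAPS94A, a fall of 0.44 ± 0.064 (adjusted p = 0.000153) without overlap. GPR6 and GPR12, its closest relatives, were at 4.22 and 4.52 with empty vector and did not pass.

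GPR161, a receptor of the primary cilium that raises cyclic AMP and restrains hedgehog signalling, read 9.43, 9.24, 9.20, 9.19 and 9.10 with empty vector and 9.98, 9.95, 10.02, 9.88 and 9.91 with YAPS94A. The groups did not overlap and the rise was 1.64-fold (0.72 ± 0.058, adjusted p = 1.16e-06). Its 6 probe sets all rose, by 0.33 to 0.72, and on the dimmest the groups overlapped. GPR176, an orphan receptor of the circadian clock in the brain, read 9.00, 9.08, 9.07, 8.93 and 8.77 against 9.48, 9.58, 9.53, 9.51 and 9.50, a rise of 0.55 ± 0.058 (adjusted p = 1.18e-05). Its dim second probe set was at 0.063.

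GPR146, linked to cholesterol levels through the liver, read 7.44, 7.25, 7.35, 7.20 and 7.30 with empty vector and 7.99, 8.03, 7.87, 7.84 and 7.97 with YAPS94A, a rise of 0.63 ± 0.054 (adjusted p = 2.19e-06) without overlap. GPR35, a receptor of the gut epithelium activated by kynurenic acid, read 6.39, 6.22, 6.33, 5.77 and 6.01 against 6.58, 6.91, 6.42, 6.78 and 6.53. Its arrays scattered more than those of the genes above, the groups barely missed overlapping, and the rise was 0.50 ± 0.12 (adjusted p = 0.00752). It was the 1 of 8 lipid and metabolite receptors that passed (12.5%, beside 36.3% of all genes) and the 1 above the yardstick. GPR55, GPR84, GPR174, GPR18, GPR31, GPR34 and GPR183 differed by -0.10 to 0.16.

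GPR75 read 5.01, 4.75, 4.60, 4.91 and 5.18 with empty vector and 5.77, 5.86, 6.11, 5.93 and 5.71 with YAPS94A, a rise of 0.98 ± 0.11 (adjusted p = 1.49e-05) without overlap, from under the yardstick to around it. A bright probe set annotated to ASB3, GPR75 and their readthrough transcript was at -0.088 ± 0.050. GPR19, an orphan receptor, rose from 8.19 ± 0.13 to 8.61 ± 0.11 (0.43 ± 0.070, adjusted p = 0.000435), and GPR160 from 10.68 ± 0.12 to 10.94 ± 0.13 (0.25 ± 0.073, adjusted p = 0.0172) with overlapping groups. GPR85, a brain receptor of highly conserved sequence, fell by 0.37 ± 0.073 (adjusted p = 0.00152) under the yardstick, with 0.0021 on its other probe set.

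GPR37, a brain receptor known as a substrate of the ubiquitin ligase parkin, read 4.21, 3.96, 4.44, 3.97 and 4.06 with empty vector and 3.25, 3.30, 3.20, 3.40 and 3.28 with YAPS94A. It fell by 0.84 ± 0.085 (adjusted p = 8.28e-06) without overlap, although all 10 arrays were under the yardstick. A second probe set, annotated to both GPR37 and SEL1L2 and so kept out of the membership, went from 6.12 to 3.47, a difference of -2.66 ± 0.086 (over all probe sets, adjusted p = 9.68e-10). Which of the genes that signal belongs to cannot be told from the annotation. Of the 35 other class A orphans 6 rose, 2 fell and 27 did not pass (22.9% past the test, beside 36.3% of all genes).

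Of the 9 members with an atypical structure or none of the main receptor classes, 1 rose and 3 fell (44.4% past the test, beside 36.3% of all genes). GPR137B, a membrane protein of the lysosome that takes part in mTORC1 regulation, read 8.45, 8.63, 8.52, 8.63 and 8.63 with empty vector and 7.67, 7.67, 7.68, 7.81 and 7.88 with YAPS94A. It fell 1.78-fold (-0.83 ± 0.056, adjusted p = 2.56e-07), whereas its paralogues GPR137 and GPR137C were at 0.11 and 0.031 and did not pass. The dimmer GPR137 probe sets rose by 0.23 and 0.18 with overlapping groups (adjusted p = 0.00837 and 0.0262 over all probe sets). In the mean of its probe sets GPR137 passed. GPR157 fell by 0.23 ± 0.055 (adjusted p = 0.006) with overlapping groups. GPR143, the ocular albinism protein of melanosomes, rose by 0.35 ± 0.064 (adjusted p = 0.00103) under the yardstick. GPR89B, a Golgi anion channel, read 6.08, 6.34, 5.88, 6.27 and 5.97 with empty vector and 5.84, 5.85, 5.95, 5.79 and 5.86 with YAPS94A, with overlap. Its fall of 0.25 ± 0.082 (adjusted p = 0.0318) was lost in 8 of 21 alternatives, among them the fits without empty vector array 2 or 4 or YAPS94A array 1, 2, 4 or 5. The 4 bright probe sets annotated to both GPR89A and GPR89B were at -0.023 to -0.080 and did not pass.

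Several bright members showed no call. GPR107, a Golgi protein, differed by -0.017 (95% interval -0.14 to 0.11) and GPR180 by 0.017 (-0.068 to 0.10). GPR39, the zinc receptor, was at 0.15 (-0.0077 to 0.31, adjusted p = 0.135), and passed without empty vector array 1 (adjusted p = 0.0257) and in 3 other alternatives. GPR153 was at -0.21 (adjusted p = 0.0801). GPR153 passed in the fit that blocks on array number (adjusted p = 0.0168), and without empty vector array 5 or YAPS94A array 2 (adjusted p = 0.0299 and 0.0308). For GPR107 the dimmer probe sets disagreed, at -0.23, 0.24 and 0.17, of which the first passed over all probe sets (adjusted p = 0.00381). GPR135 did not pass (-0.092 on an _x_at probe set), while a probe set almost as bright fell by 0.59 ± 0.11 (adjusted p = 0.00138). GPR135 was chosen for mention after its values were seen.

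Other probe sets of a gene thus gave a mixed reading. Among the 31 called members 15 have more than 1 probe set. Every probe set of ADGRF1, ADGRG1, ADGRG6, ADGRA3 and GPR161 passed in the gene's direction. Those of ADGRF5, ADGRL1, GPR157, GPR176 and GPRC5B shared 1 sign, although 1 of each did not pass over all probe sets. The other probe sets of ADGRB3, ADGRL2, GPR85, GPRC5C and GPR132 lay within 0.03 of 0, and these dimmer readings were not above the yardstick.

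**Figure D4:**
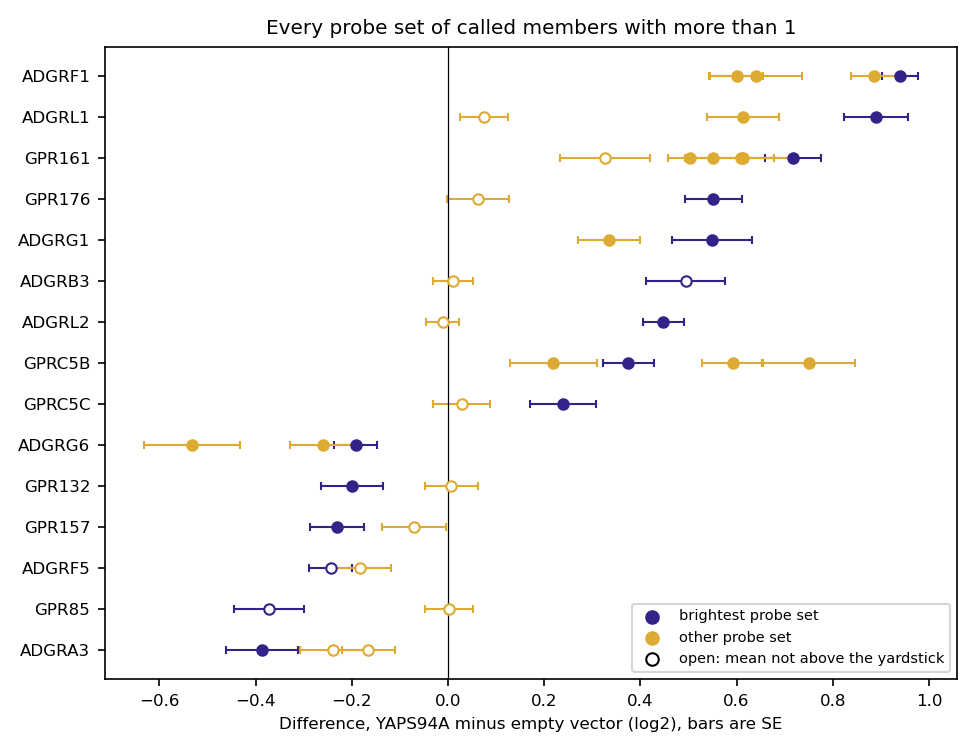
Difference between vectors (log2, bars are SE) for every probe set of the 15 called members that have more than 1; dark points are the brightest probe set, yellow points the others, and open points had a mean not above the yardstick. The filled yellow points of ADGRF1, ADGRG1, ADGRG6, ADGRL1, GPR161 and GPRC5B lie on the same side of 0 as the dark ones.

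Promoter windows were searched for CATTCC, the core of the site that TEAD factors are known to bind, on both strands (GGAATG on the other). RefSeq windows of build GRCh38.p14, from 250 bases before to 50 after a gene's start, matched 74 of the 99 members by symbol. The core was in a window of 5 of the 15 matched members that rose, 0 of the 10 that fell and 9 of the 49 that did not pass, beside 16.7% of all 27305 genes with windows. Counted over windows the shares were 14.1% of the members' 99 windows and 14.0% of all 35116. The members that rose had 32 windows among 15 genes and those that fell 12 among 10, so the counts over genes are not over like lengths, and a match is a string of letters and not a bound site.

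The 250 bases before the start are printed 5' to 3' on the gene's strand for the 5 matched members, to show the core in capitals, and for the 2 members with the largest differences, in whose single windows it was not found. ADGRL2 has 8 windows, GPR161 5, and GPR35 and GPR176 2 each, of which 1 each held the core, and ADGRF1 has 1.
ADGRF1 (chr6:47042333-47042582, minus strand): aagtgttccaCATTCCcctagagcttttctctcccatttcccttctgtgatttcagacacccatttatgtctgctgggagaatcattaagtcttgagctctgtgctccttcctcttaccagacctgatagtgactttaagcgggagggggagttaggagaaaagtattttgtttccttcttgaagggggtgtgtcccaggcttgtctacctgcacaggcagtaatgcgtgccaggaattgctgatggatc
ADGRL2 (chr1:81801192-81801441, plus strand): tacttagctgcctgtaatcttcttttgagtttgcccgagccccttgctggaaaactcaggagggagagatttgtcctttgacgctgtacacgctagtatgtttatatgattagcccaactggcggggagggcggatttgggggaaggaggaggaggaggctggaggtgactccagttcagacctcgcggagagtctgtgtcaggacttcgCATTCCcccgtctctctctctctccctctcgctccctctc
GPR161 (chr1:168137668-168137917, minus strand): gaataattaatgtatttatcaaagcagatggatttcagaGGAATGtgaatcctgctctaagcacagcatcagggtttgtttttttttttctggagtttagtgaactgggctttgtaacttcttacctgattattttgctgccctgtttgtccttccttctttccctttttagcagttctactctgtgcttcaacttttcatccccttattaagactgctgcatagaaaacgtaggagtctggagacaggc
GPR176 (chr15:39920267-39920516, minus strand): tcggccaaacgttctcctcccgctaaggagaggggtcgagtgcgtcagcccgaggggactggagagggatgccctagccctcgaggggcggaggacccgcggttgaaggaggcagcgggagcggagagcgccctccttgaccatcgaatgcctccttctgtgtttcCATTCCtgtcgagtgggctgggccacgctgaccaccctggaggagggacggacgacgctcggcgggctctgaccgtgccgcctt
GPR35 (chr2:240605180-240605429, plus strand): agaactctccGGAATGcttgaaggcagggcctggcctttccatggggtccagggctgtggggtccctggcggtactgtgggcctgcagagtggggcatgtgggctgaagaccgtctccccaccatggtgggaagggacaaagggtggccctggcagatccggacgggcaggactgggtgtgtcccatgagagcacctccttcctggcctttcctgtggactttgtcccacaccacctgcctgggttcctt
GPR158 (chr10:25174751-25175000, plus strand): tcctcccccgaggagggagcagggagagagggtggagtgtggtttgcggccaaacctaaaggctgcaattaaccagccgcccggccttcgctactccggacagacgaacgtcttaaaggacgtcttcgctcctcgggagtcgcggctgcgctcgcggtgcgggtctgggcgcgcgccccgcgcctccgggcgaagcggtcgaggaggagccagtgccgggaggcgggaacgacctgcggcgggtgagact
ADGRG2 (chrX:19122469-19122718, minus strand): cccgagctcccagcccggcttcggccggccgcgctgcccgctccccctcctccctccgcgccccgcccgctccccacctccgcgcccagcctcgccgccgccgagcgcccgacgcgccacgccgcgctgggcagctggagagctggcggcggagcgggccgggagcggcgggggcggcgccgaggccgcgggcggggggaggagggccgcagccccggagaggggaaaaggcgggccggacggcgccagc
In ADGRL2 the core begins 40 bases before the start and in GPR176 84, whereas in GPR161 it begins 211 bases before it and in ADGRF1 and GPR35 240.

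Some members lie among genes that shifted together along a chromosome. For each gene the median difference of its 30 nearest neighbours above the median level was taken, which is a description of position and names no cause. It was subtracted from the YAPS94A arrays as a fixed number. Adjusted p-values relative to neighbours therefore hold the gene's own array spread and none of the spread of the neighbours. GPR158, on chromosome 10, had neighbours at 0.67 and was at 3.41 relative to them. ADGRG1, on chromosome 16, rose among neighbours at -0.39 and was at 0.93 relative to them. On chromosome 12 GPR19 rose among neighbours at -0.32 (0.74 relative to them), and GPRC5A, uncalled by itself, had neighbours at -0.29 and was 0.24 higher than them (adjusted p = 0.000115). ADGRG6, on chromosome 6, fell by less than its neighbours (-0.31), and relative to them its sign turned (0.12, adjusted p = 0.0423). ADGRE5 lost its call relative to its neighbours (adjusted p = 0.212), and so did GPR89B (adjusted p = 0.0603). ADGRG2, with neighbours at -0.042, was at -3.41.

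**Figure D5:**
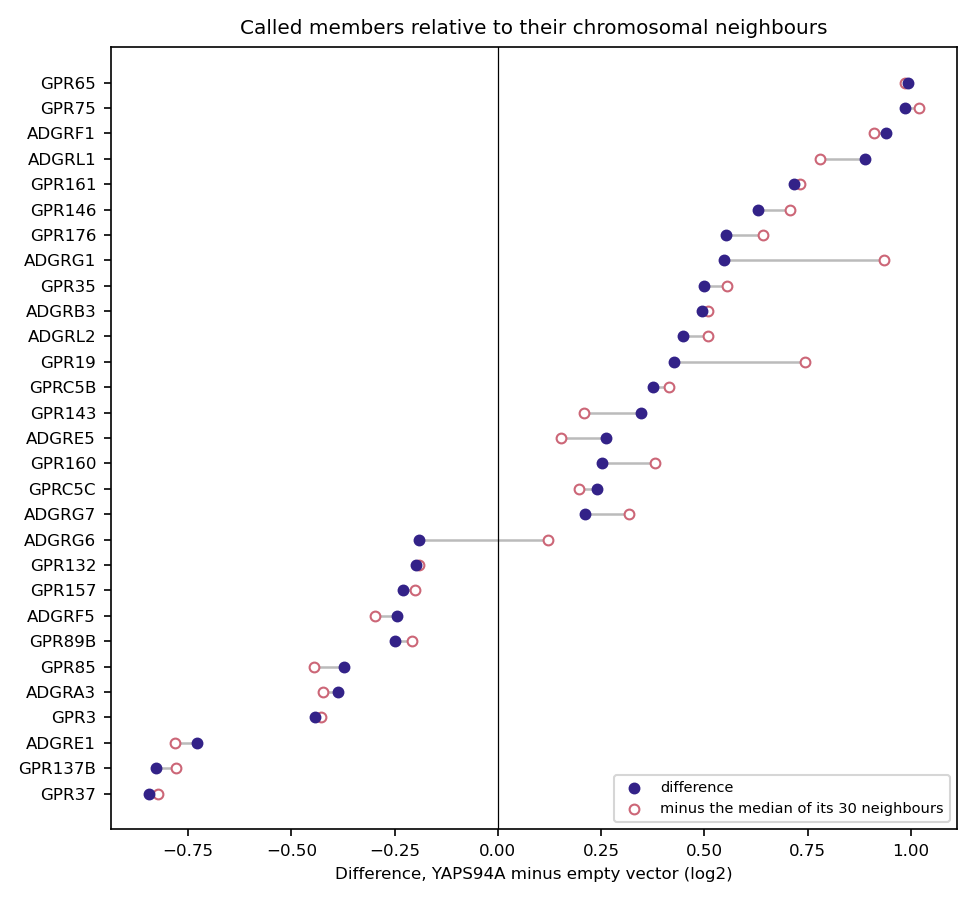
Difference between vectors (log2, dark) of 29 called members and the same after subtracting the median of their 30 chromosomal neighbours (open); GPR158 and ADGRG2 lie off the scale and are left out. ADGRG1 and GPR19 move away from 0 and ADGRG6 crosses it.

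The genes that couple these receptors to the cell, or bind them from outside it, held several larger changes. Of 92 measured genes on 6 lists 29 were higher, 12 lower and 51 did not pass (44.6% past the test, beside 36.3% of all genes), with a median difference of 0.0075. PLCB4, a phospholipase C that Gq proteins activate, rose from 5.63 to 11.50 (5.87 ± 0.16, adjusted p = 1.11e-10). Its empty vector mean lay under the yardstick, so the size of that rise is uncertain.

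Of the 13 G alpha genes 3 rose and 1 fell (30.8% past the test, beside 36.3% of all genes). GNAI1, which inhibits adenylyl cyclase, fell by 0.65 ± 0.046 (adjusted p = 4.19e-07), GNA15 of the Gq group rose by 0.55 ± 0.089 (adjusted p = 0.000374) and GNA13, of the G12 and G13 group, by 0.11 ± 0.034 (adjusted p = 0.0257). Among 17 G beta and gamma genes 5 rose and 2 fell (41.2%, beside the same 36.3%), with GNG11, GNB4 and GNB5 higher by 0.56, 0.49 and 0.34. GNB4 was not above the yardstick.

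Receptor kinases and arrestins, which end and redirect receptor signals, gave 3 rises and 1 fall among 8 measured (50% past the test, beside 36.3% of all genes). ARRB1, beta-arrestin 1, rose 4.57-fold from 6.87 ± 0.12 to 9.06 ± 0.077 (2.19 ± 0.060, adjusted p = 1.02e-10). GRK3 fell 2.35-fold from 8.47 ± 0.097 to 7.24 ± 0.049 (-1.23 ± 0.050, adjusted p = 3.17e-09) and GRK5 rose by 0.46 ± 0.088. Of 20 RGS genes, which speed the shut-off of G alpha subunits, 7 rose and 4 fell (55.0% past the test, beside 36.3% of all genes). RGS4 read 9.06, 9.31, 9.08, 9.14 and 9.20 with empty vector and 5.81, 6.01, 5.38, 5.74 and 5.26 with YAPS94A, an 11.5-fold fall to around the yardstick (-3.52 ± 0.13, adjusted p = 1.14e-09). RGS2 fell by 0.60 ± 0.050 and RGS18 rose by 1.55 ± 0.14 from 4.68, under the yardstick. RGS7 and GNB5, the partners of GPR158, were at 0.19 ± 0.057 (adjusted p = 0.0186) and 0.34 ± 0.076 (adjusted p = 0.00419), and RGS7 was chosen for mention after its value was seen.

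Of 17 effector genes 4 rose and 1 fell (29.4% past the test, beside 36.3% of all genes). Besides PLCB4, the adenylyl cyclase gene ADCY9 rose by 0.53 ± 0.036 and PLCB3, whose _x_at probe set can cross-hybridise, by 0.56 ± 0.054. Of 17 measured partners of adhesion receptors 7 rose and 3 fell (58.8%, beside the same 36.3%). TENM1, a teneurin that latrophilins bind, read 5.40, 4.96, 5.28 and 4.77 on empty vector arrays 1, 2, 3 and 5, a value between these on array 4, and 7.11, 6.91, 7.37, 6.94 and 6.91 with YAPS94A, a rise without overlap (1.97 ± 0.13, adjusted p = 1.59e-07). All 5 empty vector arrays lay under the yardstick, so its size is uncertain. FLRT2, another ligand of latrophilins, rose by 0.83 ± 0.069, and FLRT3, named after its value was seen, fell by 0.87 ± 0.074. PRICKLE1, which acts with CELSR proteins in planar cell polarity, fell by 0.38 ± 0.032 among neighbours at -0.29 and was at -0.094 relative to them. The other listed genes of planar cell polarity did not fall. VANGL1, VANGL2 and FZD3 rose by 0.45 ± 0.038, 0.73 ± 0.11 and 0.50 ± 0.075, and FZD6 did not pass (0.16 ± 0.27). These genes were named after their values were seen.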

How the data were processed

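Total RNA of HuCCT1 cells was measured on 10 Affymetrix arrays, amplified and biotin-labelled with a NuGEN kit per the labels' protocols. The values are the authors' deposited log2 signals of 54675 probe sets. The sources used here do not state the summary and normalization method. Since array medians already lay at 6.25 to 6.28, nothing more was done to scale them. GEO's platform annotation gave the gene symbols, which were brought up to date by a RefSeq table of GRCh38.p14 (41043 of the 41097 probe sets with 1 symbol were in it). The 62 control probe sets were left out. No count of molecules stands behind an array signal, so the number of arrays limits the precision.

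Vectors were compared with limma 3.58.1 in R 4.3.3 (lmFit and eBayes, two-sided, no covariate, Benjamini-Hochberg adjustment over 19775 genes, threshold 0.05), checked on simulated data. Differences are YAPS94A minus empty vector with the standard error (SE) of the fit, and its adjusted p-values follow in parentheses. Values for single probe sets come from the same fit over all 54613 probe sets that are no controls. The named genes were called members, the 10 uncalled receptor genes with the highest means, GPR158, ADGRG1, GPRC5A and ADGRE5, and up to 3 called genes of each coupling list with the smallest p. Other members are named in groups or as paralogues. Values of every array are given for GPR158 and ADGRG2, the called members that differed at least 2-fold, and for further genes picked after their values were seen. The members, lists, yardstick and tests were chosen with earlier results of these data known.

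The labels number the arrays of each vector from 1 to 5. For arrays with 1 number, deviations from the mean of the group had correlations of 0.102 to 0.59 across genes, over 0.1 for all 5 numbers. The main fit nevertheless has no block, and its calls and p-values ignore this pairing. The number was used as a block in an alternative fit only. That pairing comes from the data and not from a stated batch. Alternatives were 2 renormalizations, 2 filters on dim genes, 2 ways to represent a gene, an intensity trend, array weights, the block, the neighbour median and leaving out each array. Leaving out the arrays numbered 1 and 2 and a covariate for the actin control were added after the data were seen.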

Additional observations from a re-analysis of the deposited data

Results flagged for a closer look

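Of 82 groups of 5 arrays tested for a single distant array (41 members and 2 vectors), 5 held one by Dixon's criterion, and chance marks about 1 in 20. ADGRE1 and ADGRG2 were each highest on empty vector array 1, at 8.21 (the others at most 8.04) and 8.15 (7.99 to 8.03). ADGRF1 was highest on YAPS94A array 3, at 12.01 (11.95 to 11.96). GPR3 was highest on empty vector array 2, at 7.28 (7.03 to 7.08). GPRC5C was lowest on YAPS94A array 5, at 7.60 (7.89 to 7.97). Each of these 5 genes passed the limma test without that array as well. Of the 10 probe sets kept out of the membership because they carry several symbols, 2 passed over all probe sets. The share of all probe sets past that fit was not taken, and in the main fit 36.3% of all genes passed. The 2 were the one annotated to SEL1L2 and GPR37 at -2.66, and the one annotated to MIR6791 and GPR108. The latter rose by 0.40 ± 0.053 (adjusted p = 0.000133) without overlap of groups.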

How the results depend on the processing

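Of the 31 called members 25 passed the limma test in each alternative in which they were measured, counted whatever the sign. ADGRG6 is among these 25, although relative to neighbours it passed with the opposite sign. ADGRE5, GPR132, GPR89B and GPRC5C lost their calls in 26 of the 657 fits of called members, and ADGRL2, GPR85 and ADGRG6 changed sign in 1 each. Without _x_at and _s_at probe sets ADGRL2 was at -0.011 and GPR85 at 0.0021, both on dim probe sets, and relative to neighbours ADGRG6 was at 0.12. Restricting the test to the 9887 genes above the median level left 24 members, of which 10 were higher and 5 lower, with 7 adhesion members and 24 coupling and partner genes past the test. Of all genes in that fit 55.7% passed, beside 62.5% of the members. Relative to the neighbour median 6 of 6 class C members passed, in a fit where 43.2% of all genes and 42 of the 99 members did. GPRC5A, GPRC5D and GPRC6A, uncalled in the main fit, were added there by subtracting a fixed number from the YAPS94A arrays. The cause of the neighbours' shifts was not tested. With the array number as a replicate block 35 members passed, 20 higher and 15 lower, and all 31 calls were kept, while the share of all genes past the test was 41.2%. CELSR1, CELSR2, CELSR3 and GPR153 were added, and no other member's call changed. Adhesion members past the test were then 15, class C members 3 and coupling and partner genes 43. Leaving out 1 array gave 18 to 22 members higher and 10 to 13 lower.

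The 10 uncalled members passed with their sign unchanged in 23 of their fits: GPR153 in 7, CELSR1 in 5, GPR39 in 4 (array weights, the actin covariate, without the arrays numbered 1 and 2, and without empty vector array 1), ADGRF4 in 3 and CELSR2 and CELSR3 in 2 each. Among these members the sign turned for GPRC5A relative to neighbours (0.24), for CELSR1 (-0.074) and ADGRA2 (0.031) in the mean of their probe sets, and for GPR107 in that mean (0.041), with array weights (0.0034), relative to neighbours (0.047), without the arrays numbered 1 and 2 (0.012) and with the actin covariate (0.0083). Leaving out 1 array gave -0.044 to 0.029 for GPR107 and -0.00032 to 0.034 for GPR180. Dim signal limits the members and coupling genes not above the yardstick with 1 or both vectors, whose folds are uncertain.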
